A study of Mus musculus with 16 samples.

Results

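The MHC class II antigen presentation genes described here were Cd74, H2-Aa, H2-Ab1, H2-Eb1, H2-DMa, H2-DMb1 and Ciita. They were chosen by name, and every probe annotated to them was taken. They are 7 of the 16593 gene symbols on the array, read by 11 of its 25697 probes. H2-Ab1 had 4 probes, Cd74 had 2 and the other genes 1 each. RNA of bone or brain of single mice was measured on one-colour Illumina bead arrays, and mice of the Ali35 line, which carries a mutation in Shc2, were compared with wild-type mice. Each of the 4 groups held 4 mice: wild-type bone and Ali35 bone at 120 days of age, and wild-type brain and Ali35 brain at 3 days. All 16 mice were C3H/HeJ, an inbred strain with MHC haplotype k and a loss-of-function allele of the endotoxin receptor gene Tlr4, so wild-type and mutant mice share both. The labels gave no sex, and tissue and age changed together.

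MHC class II molecules display peptides from engulfed proteins to CD4+ T cells. An alpha and a beta chain, encoded by H2-Aa with H2-Ab1 or by H2-Ea with H2-Eb1, pair in the endoplasmic reticulum with the invariant chain Cd74, which blocks the groove and leads the complex to endosomes. There the H2-DM heterodimer helps exchange the last piece of Cd74 for peptide, and H2-DO restrains H2-DM. Ciita is the co-activator that switches on the whole set through promoters bound by the RFX and NF-Y complexes, and in marrow-filled bone the set is used mainly by B cells, dendritic cells and some macrophages.

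In the RefSeq annotation of GRCm38.p6, 5 of the genes lie in the MHC on chromosome 17: H2-DMa at 34119693 to 34139101, H2-DMb1 at 34153191 to 34160229, H2-Ab1 at 34263227 to 34269418, H2-Aa at 34282744 to 34287823 and H2-Eb1 at 34305867 to 34316674. Ciita lies on chromosome 16 at 10480014 to 10531064. The span of H2-DMa overlaps that of Brd2, a bromodomain gene. Probe positions and sequences were not used here, so whether each probe matches the transcript of haplotype k was not tested.

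The promoters of H2-Eb1, H2-Aa and H2-DMb1 are shown because, among the member windows examined, they are those that hold TGATTGG. They span the 250 bases before the annotated start in the C57BL/6J reference, from RefSeq, GRCm38.p6, written in the direction of transcription, with capitals for TGATTGG (the Y box bound by NF-Y), its core ATTGG and GCAAC (the core of the X1 box bound by RFX), each searched on both strands.
H2-Eb1 (chr17:34305617-34305866, plus strand): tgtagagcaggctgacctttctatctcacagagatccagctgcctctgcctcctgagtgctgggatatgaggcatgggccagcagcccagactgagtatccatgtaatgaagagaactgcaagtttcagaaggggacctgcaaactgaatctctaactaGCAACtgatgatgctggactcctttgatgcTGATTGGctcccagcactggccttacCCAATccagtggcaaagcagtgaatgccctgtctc
H2-Aa (chr17:34287824-34288073, minus strand): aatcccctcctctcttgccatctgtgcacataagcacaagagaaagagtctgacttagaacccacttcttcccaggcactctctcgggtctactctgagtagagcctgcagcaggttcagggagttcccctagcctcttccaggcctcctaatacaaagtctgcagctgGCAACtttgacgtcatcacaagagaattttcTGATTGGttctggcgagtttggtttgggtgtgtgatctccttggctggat
H2-DMb1 (chr17:34152941-34153190, plus strand): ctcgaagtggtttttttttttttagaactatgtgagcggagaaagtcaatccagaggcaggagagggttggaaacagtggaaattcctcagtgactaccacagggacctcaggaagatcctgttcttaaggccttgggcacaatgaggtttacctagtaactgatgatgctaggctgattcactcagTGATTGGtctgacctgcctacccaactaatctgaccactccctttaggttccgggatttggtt
TGATTGG begins 61 bases before the start in H2-Eb1, 50 in H2-Aa and 63 in H2-DMb1. GCAAC begins 91 bases before the start in H2-Eb1 and 81 in H2-Aa, and these letters were not found in the H2-DMb1 window. H2-Eb1 also holds ATTGG on the other strand nearer the start. Of the 5 member windows examined, for 4 genes, 3 held TGATTGG and 2 held both motifs, while neither H2-DMa window held TGATTGG. No window of Cd74, H2-Ab1 or Ciita was examined, so these counts do not cover the whole set. Among all 32851 promoter windows of the same length 7.23% held TGATTGG, 29.9% GCAAC and 2.35% both. A match is a description of the reference letters and not a bound site.

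The quantity given for each mouse is the deposited normalized intensity of a probe, which has no unit and cannot be compared between probes. For tests, values below a floor of 16 were set to 16 and log2 values were taken. Only probes with 4 or more of a tissue's 8 arrays at 16 or above entered its test, and a change was called at a Benjamini-Hochberg adjusted p under 0.05 in limma over all probes tested. On each array 47.3% of probes in bone and 42.3% in brain reached 16. The tissues matched their labels: Col1a1 and Bglap were bright in bone and Stmn2 and Syp in brain, although the Dmp1 probe in bone and the Tubb3 and Snap25 probes in brain were too dim to be tested. In Ali35 bone replicate 1 the female-specific RNA Xist read 221 and 167 on its 2 probes. No other bone array exceeded 11.7 and 7.17 there, and no brain array 5.72 and 5.25. The Y-linked gene Eif2s3y read -2.50 in this mouse, 410 to 686 on the other bone arrays and 85.8 to 184 in brain. By these values that mouse was female and all others were male. Without that mouse the same 6 class II probes as below were called in bone.

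In bone of Ali35 mice Cd74 was about 2.15-fold higher than in wild type, H2-Ab1 1.43- to 1.57-fold higher and H2-Eb1 1.34-fold higher, while H2-DMa, H2-DMb1 and Ciita did not pass the test and H2-Aa was not measured above the floor. Of the 11 probes 9 were tested in bone. On these, 6 were called higher and 0 lower, and on the same 6 the 4 Ali35 mice all lay above the 4 wild-type mice. Over all 12223 probes tested in bone, 24.6% were called, 12.7% higher and 11.9% lower, and for 13.5% the Ali35 mice all lay above the wild-type mice. The median log2 change of the 9 probes was 0.52, beside -0.04 over all probes tested. In bulk bone, a change in the number of cells of a type and a change in RNA per cell cannot be told apart.

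Cd74, the invariant chain gene, at 60803849 to 60812652 on chromosome 18, had the largest changes among the members tested. On the first probe (ILMN_1221817) the wild-type mice read 2235, 2026, 2964 and 1854 and the Ali35 mice 4370.2, 4620.0, 4666 and 5608. The groups did not overlap, and wild-type replicate 3 was the highest of the controls. The mean was 2269.8 ± 488 in wild type and 4816 ± 544 in Ali35 (SD, 4 mice each), a log2 change of 1.10 ± 0.15 (SE; limma, adjusted p = 0.00197). The second probe (ILMN_3089584) read 1863, 1871, 2876 and 1755 in wild type and 4209, 4602, 4045 and 4873 in Ali35. It gave the same picture, with wild-type replicate 3 again highest and no overlap, and a log2 change of 1.11 ± 0.16 (2.16-fold, limma, adjusted p = 0.00229). Both calls were kept whichever array was left out, with changes between 1.01 and 1.27.

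H2-Ab1, the beta chain of the class II molecule I-A, rose on 3 of its 4 probes. Probe ILMN_2913716 read 178, 182, 199 and 145 in wild type and 274, 295, 241 and 296 in Ali35, a log2 change of 0.65 ± 0.13 (limma, adjusted p = 0.00702). Probe ILMN_1226525 read 561, 542, 572 and 613 in wild type and 693, 1024, 785 and 1157 in Ali35 (0.65 ± 0.16, limma, adjusted p = 0.0188). Here the wild-type mice lay close together, while the Ali35 mice spread widely, with replicates 2 and 4 high and replicate 1 lowest. Probe ILMN_2607675 read 943, 888, 1030.0 and 973 in wild type and 1096, 1443, 1330.3 and 1687 in Ali35, with the same order of the Ali35 mice as on the probe before (0.52 ± 0.14, limma, adjusted p = 0.0229). That call was lost without wild-type replicate 1, 2 or 4, with adjusted p of 0.0589, 0.0581 and 0.0575, while the calls of the other 2 probes were kept whichever array was left out. The fourth probe (ILMN_2631423) reached 16 only in Ali35 replicates 1 and 2, at 25.2 and 18.4, and was not tested.

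H2-Eb1, the beta chain of the class II molecule I-E, read 821, 789, 972 and 856 in wild-type bone and 995, 1151, 1131 and 1355 in Ali35 bone. The gap between the groups was narrow, with Ali35 replicate 1 just above wild-type replicate 3, and Ali35 replicate 4 was again highest. The log2 change was 0.43 ± 0.12 (1.34-fold, limma, adjusted p = 0.0309). The call was lost when any array other than wild-type replicate 3 or Ali35 replicate 1 was left out, with adjusted p up to 0.0814. Over all 8 such fits the change lay between 0.35 and 0.50.

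The alpha chain gene H2-Aa could not be followed: its probe lay between -2.15 and 7.34 on the 8 bone arrays, below the floor of 16 on each. The partner of H2-Eb1, H2-Ea, read 329, 273, 372 and 428 in wild type and 326, 414, 358 and 493 in Ali35. These groups overlapped, and H2-Ea did not pass (log2 0.19 ± 0.17, 95% interval -0.19 to 0.57, limma, adjusted p = 0.451).

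The peptide exchange genes gave smaller values. H2-DMa read 359, 429, 492 and 382 in wild-type bone and 504, 541, 421 and 526 in Ali35 bone, so that Ali35 replicate 3 lay within the wild-type range. Its log2 change of 0.27 ± 0.13 did not pass (95% interval -0.03 to 0.56, limma, adjusted p = 0.168). H2-DMb1 read 639.6, 693, 666 and 706 in wild type and 641, 739.9, 673 and 775 in Ali35. The groups overlapped, with a change of 0.06 ± 0.10 (95% interval -0.16 to 0.29, limma, adjusted p = 0.682), an interval that leaves room for a rise of the size seen at H2-DMa but not for that of Cd74. H2-Oa, a chain of the inhibitor H2-DO, read 49.2 to 63.4 in Ali35 and 61.4 to 85.2 in wild type and did not pass either (-0.36 ± 0.14, limma, adjusted p = 0.0807). H2-Ob, its partner, was below the floor on all 8 arrays. With H2-Eb2 at -0.01, 0 of the 3 other class II locus genes tested were called by limma, and 1, H2-Oa, had an unadjusted p under 0.05.

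Ciita, the co-activator of the set, read 58.8, 44.1, 69.0 and 67.1 in wild-type bone and 40.8, 70.5, 67.0 and 61.2 in Ali35 bone. The lowest mouse was Ali35 replicate 1, and the ranges covered each other almost wholly. The log2 change was -0.01 ± 0.20 (limma, adjusted p = 0.984), with a 95% interval from -0.46 to 0.44, so that a modest change in either direction could not be detected with 4 mice per group.

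**Figure D1:**
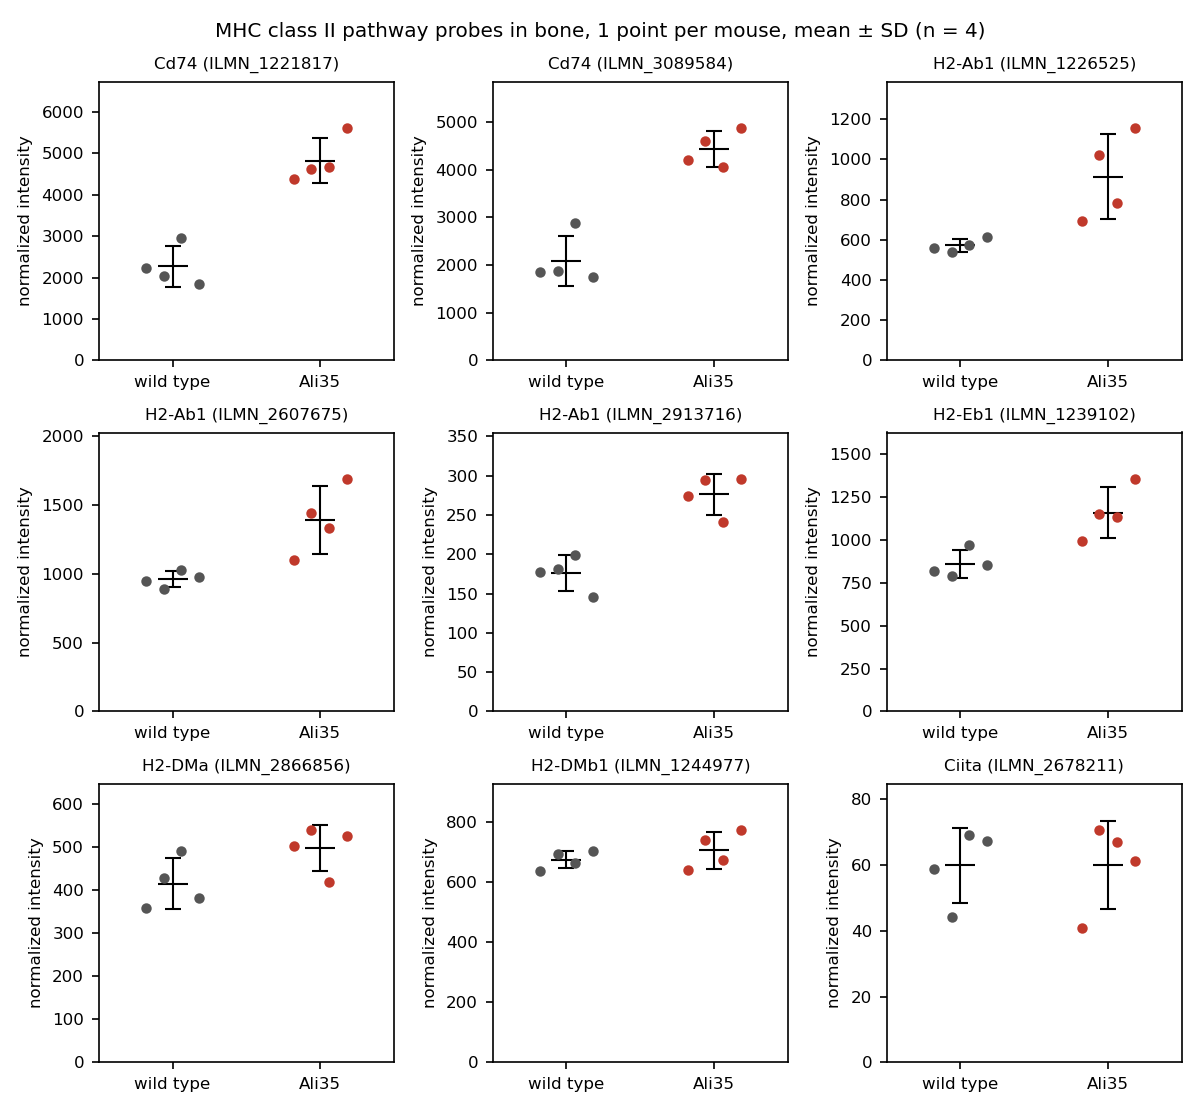
Normalized intensity (vertical axis, linear from 0, no unit) of the 9 class II pathway probes tested in bone, by genotype; points are mice in order of replicate number, and bars give the mean ± SD of 4 mice. The Ali35 mice all lie above the wild-type mice for both Cd74 probes, 3 H2-Ab1 probes and H2-Eb1, and the groups overlap for H2-DMa, H2-DMb1 and Ciita.

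Within arrays, the mean log2 value of both Cd74 probes minus that of each other probe describes how far the Cd74 values stood from the rest. Cd74 was singled out after its values were seen, so these differences carry no test. The difference was greater in Ali35 than in wild type by 1.11 for Ciita, 1.04 for H2-DMb1, 0.84 for H2-DMa and 0.68 for H2-Eb1 (log2). Against the H2-Ab1 probes it was greater by 0.59, 0.46 and 0.45. On H2-Ab1 probe ILMN_1226525 the groups overlapped, with 2 of 4 Ali35 mice above all wild-type mice.

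The MHC class I pathway, which displays peptides from inside the cell and shares interferon control with class II, was the other antigen presentation list with genes that rose in bone. Its 13 genes tested had a median log2 change of 0.44, beside -0.04 over all probes tested in bone. Beside 12.7% of all probes called higher and 11.9% lower, 5 of these genes were called higher and 0 lower. They were Nlrc5, the class I counterpart of Ciita, the peptide transporter genes Tap1 and Tap2, the light chain gene B2m and the class I chain gene H2-Q7, whose probe may also read near-identical class I genes. Nlrc5 read 35.6, 58.5, 56.1 and 36.4 in wild type and 75.1, 135, 76.5 and 102 in Ali35, with no overlap (log2 1.05 ± 0.23, limma, adjusted p = 0.0123). Whether its change differed from that of Ciita was not tested.

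Tap1 rose 2.21-fold (log2 1.15 ± 0.25, limma, adjusted p = 0.0116), from 68.8 to 90.9 in wild type to 118 to 261 in Ali35. Tap2 rose 1.63-fold (0.70 ± 0.15, limma, adjusted p = 0.0113). B2m rose from 9712 ± 716 to 13918 ± 2156 (0.51 ± 0.13, limma, adjusted p = 0.0218), and its second tested probe had 0.34 and did not pass. Without wild-type replicate 2 or Ali35 replicate 4 only 3 class I genes were called. The genes whose calls rested on single arrays were B2m, called in 6 of 8 such fits, and H2-Q7, called in 3.

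Genes that act around the class II members mostly did not pass, as was so for all probes tested in bone, of which 24.6% were called. Of 5 promoter factors tested, limma called 0 higher and 1 lower: Nfyb, an NF-Y subunit, had -0.39 ± 0.13 (limma, adjusted p = 0.0487), a call kept in only 1 of the 8 fits that leave out an array. Its partner Nfyc had 0.27 ± 0.10 and did not pass (limma, adjusted p = 0.0682) except without Ali35 replicate 1 (adjusted p = 0.0433), and Rfx5 and Rfxank were below the floor. Among 8 endosomal processing genes 0 were higher and 1 lower. That was Marchf1, a ubiquitin ligase that takes class II molecules off the cell surface, which fell from 152 ± 12.6 to 113 ± 8.86 (-0.43 ± 0.11, limma, adjusted p = 0.0190), with no overlap between the groups. The call was lost without wild-type replicate 4 (adjusted p = 0.0573). The protease genes Ctss (0.15 ± 0.31) and Lgmn (0.04 ± 0.12) and the reductase gene Ifi30 (0.33 ± 0.17) did not pass. Cd63 read 4890 to 5685 in wild type and 3478 to 5119 in Ali35, and Ctsb read 7483 to 8063 and 8335 to 9239. Neither of these passed.

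Interferon gamma, the best-known inducer of Ciita, was below the floor on both Ifng probes on all bone arrays. Of 5 tested genes of its pathway, 0 were higher and 1 lower by the brightest probe of each gene: the kinase gene Jak2 had -0.39 ± 0.11 (limma, adjusted p = 0.0303), called in 3 of 8 fits that leave out an array, and its second probe had -0.57 ± 0.12 (limma, adjusted p = 0.00874). Irf1, an interferon gamma target, had 0.12 ± 0.11 and did not pass. For the receptor gene Ifngr2 the probes disagreed: the brightest had 0.17 ± 0.17 and did not pass, while the other 2 had -0.88 ± 0.12 and -0.89 ± 0.13 (limma, adjusted p = 0.00188 and 0.00236). Of the 3 costimulation genes tested, Cd40 (-0.22), Cd86 (-0.14) and Cd274 (0.16), limma called 0, and 0 had an unadjusted p under 0.05 by the brightest probe.

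**Figure D2:**
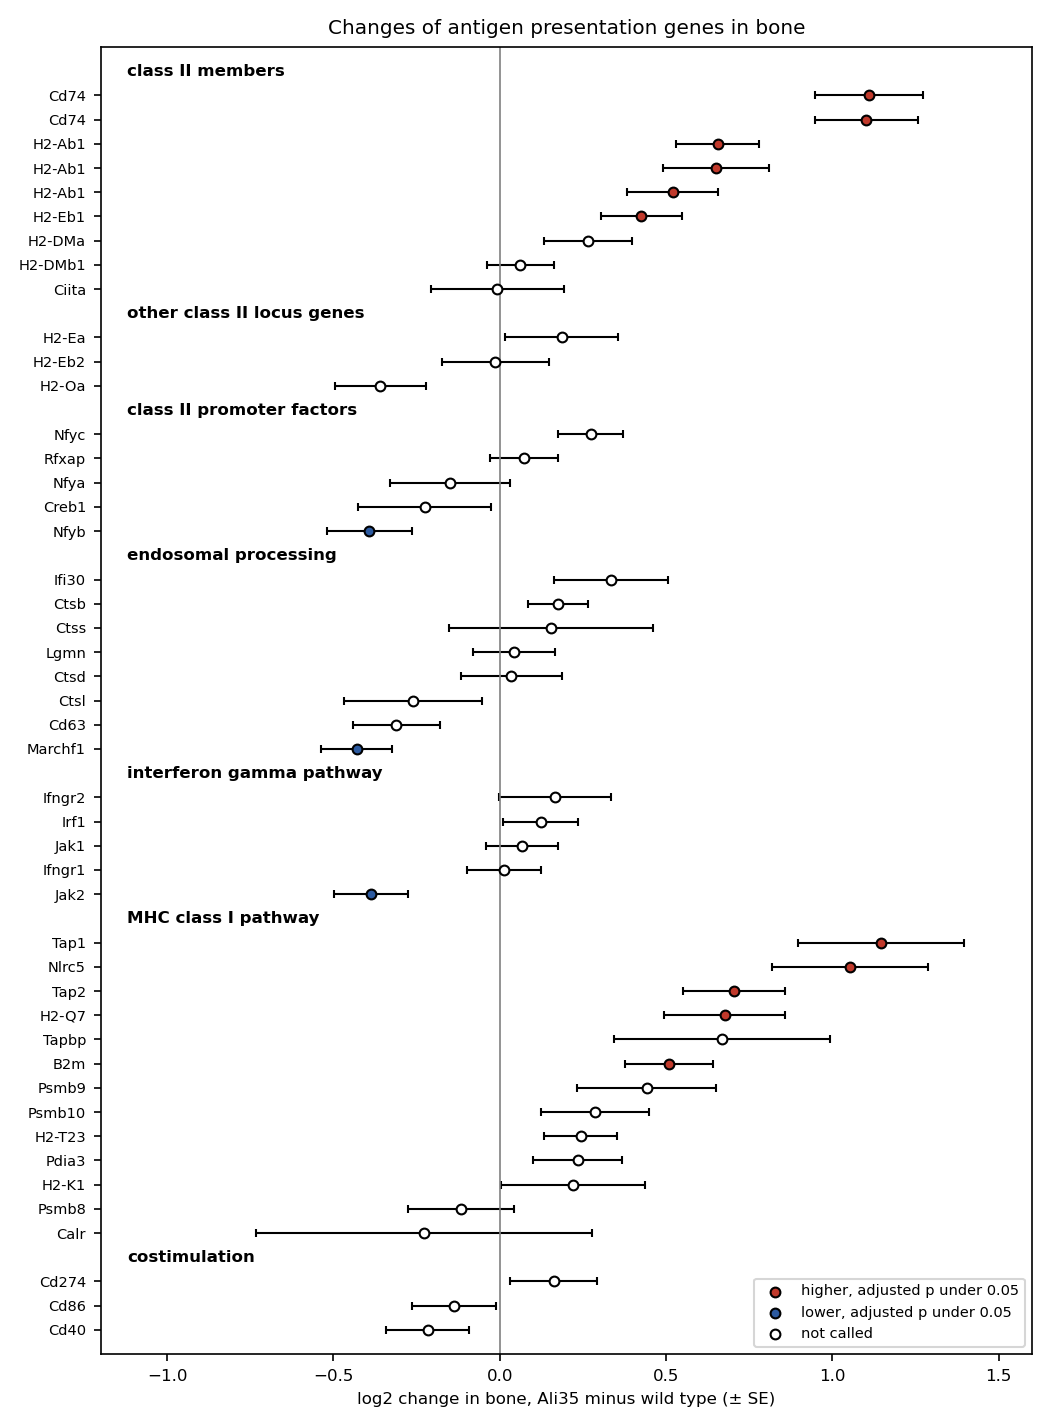
Log2 change in bone, Ali35 minus wild type, with its standard error (horizontal axis), for the class II probes and for the brightest tested probe of each gene in 6 related lists; filled points passed an adjusted p under 0.05. The genes called higher are class II members and class I genes. Of the class I genes 5 of 13 passed, beside 12.7% of all probes called higher in bone. The only calls in the other lists are falls of Nfyb, Marchf1 and Jak2.

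Markers of the cells that can carry class II gave mixed values. Of 9 B cell genes tested, 1 was higher and 1 lower, near the shares over all probes tested in bone (12.7% higher and 11.9% lower). Their summed intensity ran from 4347 to 4876 in wild type and from 2666 to 4125 in Ali35, with no overlap. Such a sum is weighted to its brightest probes. In wild-type replicate 1, Cd79b, Vpreb1 and Vpreb3 gave 1654, 966 and 1069 of the 4347. Cd79b, a chain of the B cell receptor, fell on both probes, from 1703 ± 60.4 to 1179 ± 196 on the brighter (-0.55 ± 0.13, limma, adjusted p = 0.0153) and by 0.99 ± 0.18 on the other. Cd22, a B cell inhibitory receptor gene, had 0.40 ± 0.12 (limma, adjusted p = 0.0381), called in 3 of 8 fits that leave out an array, and its dimmer probe had -0.07 ± 0.17. Vpreb1, a surrogate light chain gene of B cell precursors, had -0.64 ± 0.21 (limma, adjusted p = 0.0503). Without Ali35 replicate 1 there were 2 genes called lower, Cd79b and Vpreb1, and without Ali35 replicate 4 there were 3, with Ms4a1. Ms4a1 did not pass with all arrays, and its added call rests on the floor. It read 18.6 to 27.0 in wild type and 21.5 in Ali35 replicate 4. The other Ali35 mice read 6.66 to 13.2, so without replicate 4 all Ali35 values were set to the floor and had no spread. The B cell genes Pax5 and Cr2 were below the floor, and Cd79a had -0.08 ± 0.14. Without Ali35 replicate 1, the mouse with the lowest sum, the median of the list went from -0.21 to -0.06.

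Of 5 dendritic cell genes tested limma called 0 by the brightest probe, and 0 had an unadjusted p under 0.05. A dimmer probe of the plasmacytoid marker Siglech was called lower (-0.65 ± 0.17, limma, adjusted p = 0.0214), while its brightest had 0.17 ± 0.13. In this list the defining genes Itgax, Flt3, Xcr1 and Clec9a were below the floor on all 8 arrays. The summed intensity of the 5 tested genes was 761 to 845 in wild type and 773 to 919 in Ali35. Among 5 macrophage and monocyte genes, the Fc receptor gene Fcgr1 was called higher (0.68 ± 0.22, limma, adjusted p = 0.0445, called in 3 of 8 fits that leave out an array) and 0 lower, with sums of 1760 to 2213 in wild type and 1536 to 1922 in Ali35. Of the 5 genes, 3 had positive changes. Mrc1 read 1202 to 1580 in wild type and 916 to 1366 in Ali35, and Cd14 read 214 to 251 and 170 to 228. Neither passed. Of 4 T cell genes 1 was called higher, the receptor chain gene Cd247. Its tested probe read 6.01 to 13.1 in wild type, below the floor on every array, and 18.1 to 31.8 in Ali35. It thus entered the test through the Ali35 arrays alone, and the size of its change depends on the floor. The call was kept in 3 of 8 fits that leave out an array. Of the 4 genes, 2 had positive changes. Cd3d read 818 to 838 in wild type and 662 to 815 in Ali35 and did not pass. In the neutrophil list Mpo, the myeloperoxidase gene, rose (0.56 ± 0.11, limma, adjusted p = 0.00853), as 1 of 9 genes, and the sums overlapped. Single calls in lists of 4 to 9 genes stand beside the 12.7% of all probes tested in bone that were called higher.

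Of 8 genes of the bone-forming cells tested, 4 were called higher and 0 lower: the collagen genes Col1a1 (1.91 ± 0.22) and Col1a2 (0.76 ± 0.20), the osteoblast regulator Sp7 (1.06 ± 0.11) and the alkaline phosphatase gene Alpl (1.04 ± 0.20). The others did not pass: Sost (0.30 ± 0.12), Ibsp (0.13 ± 0.17) and Phex (0.11 ± 0.18), and Bglap, the osteocalcin gene, at -0.22 ± 0.20. The 4 calls among these 8 genes stand beside 12.7% of all probes tested in bone that were called higher. The summed intensity of the 8 overlapped between the groups, at 17997 to 27120 in wild type and 25464 to 41133 in Ali35. The part of these cell types in the class II values was not tested.

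**Figure D3:**
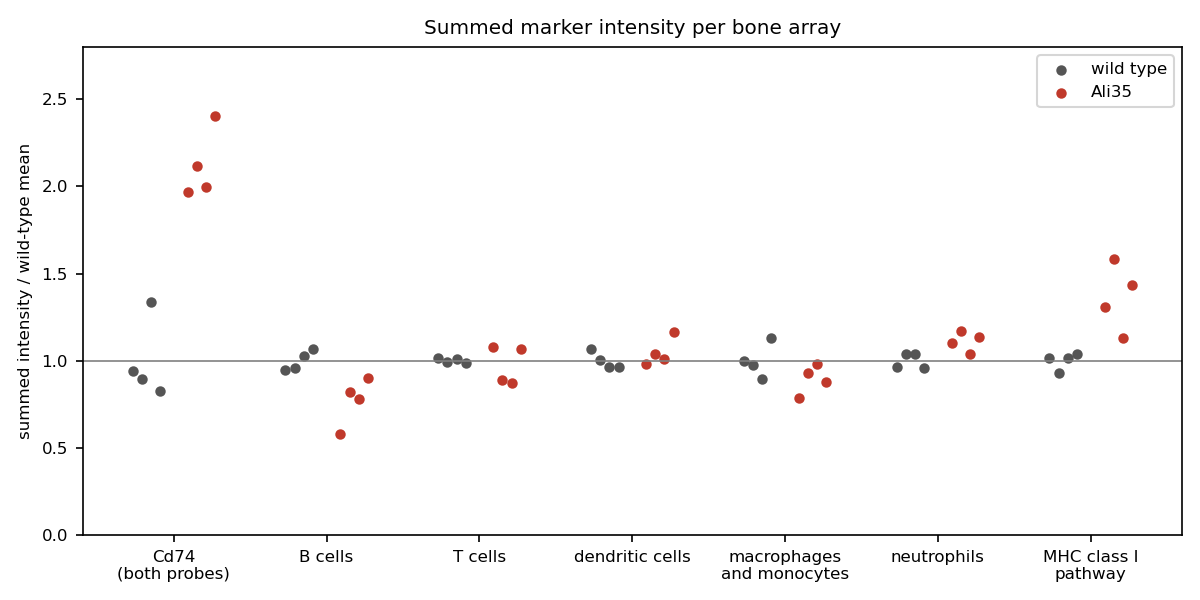
Summed normalized intensity of each marker list on each bone array, divided by the wild-type mean (vertical axis, linear from 0), for both Cd74 probes, 5 cell type lists and the class I list; each point is a mouse. The Ali35 mice lie above all wild-type mice for Cd74 and the class I list and below all of them for the B cell list, and the groups overlap for T cells, dendritic cells, macrophages and neutrophils. Each sum is weighted to its brightest probes, such as B2m, which gave 10119 of 15964 in the class I sum of wild-type replicate 1.

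By the rule for like patterns, the deviations of each gene from its group means on the 8 bone arrays were set against the mean deviation of the 9 member probes. Of 8694 gene symbols, the 6 with the highest Pearson r over these 8 arrays were Sox13, Ube2r2, Tbc1d10b, Ppp1ca, Dnajb13 and Snapc4, with r from 0.960 to 0.987. Sox13, Ube2r2, Tbc1d10b and Dnajb13 had group means under 30, near the floor. Among the 6, Ube2r2 (0.74 ± 0.17) and Snapc4 (0.71 ± 0.14) also rose in Ali35 bone, and the other 4 did not pass. The wild-type mean of Ube2r2, 15.45, lay below the floor, and its Ali35 mean was 29.7. The size of the Ube2r2 change thus depends in part on the floor. The 6 were picked as the highest of 8694 symbols, and whether such r exceed what chance gives was not tested.

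Newborn brain gave a contrast, since class II was not measured there above the floor. The 10 probes other than that of H2-DMa lay between -5.17 and 11.4 on the 8 brain arrays, in wild type and Ali35 alike. The second Cd74 probe, for example, read 8.34, 6.75, 7.72 and 9.95 in wild type and 8.41, 2.85, 4.31 and 7.94 in Ali35. The arrays were normalized within each tissue, so the levels in bone and brain stand side by side only.

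H2-DMa was the exception in brain, with 77.6, 88.4, 78.5 and 88.3 in wild type and 103, 123, 99.2 and 106 in Ali35. It was the 1 member tested there, and 0 were called by limma. The 4 Ali35 mice all lay above the wild-type mice, as they did for 8.78% of the 10922 probes tested in brain. The log2 change of 0.37 ± 0.10 did not pass over all probes (1.29-fold, 95% interval 0.15 to 0.60, limma, unadjusted p = 0.00383, adjusted p = 0.0672), where 3.64% of probes were called. Its change in bone minus that in brain was -0.11 ± 0.16 (limma interaction, adjusted p = 0.659), against 24.4% of 9225 probes called for that difference. The 3 probes of Brd2, whose span overlaps H2-DMa, had 0.24, 0.13 and -0.17 in brain and did not pass, and which transcript the H2-DMa probe reports in brain was not tested. Of 6 class I genes tested in brain limma called 0, with 0 at an unadjusted p under 0.05, and of 6 microglia genes it called 0, with 1 at an unadjusted p under 0.05.

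**Figure D4:**
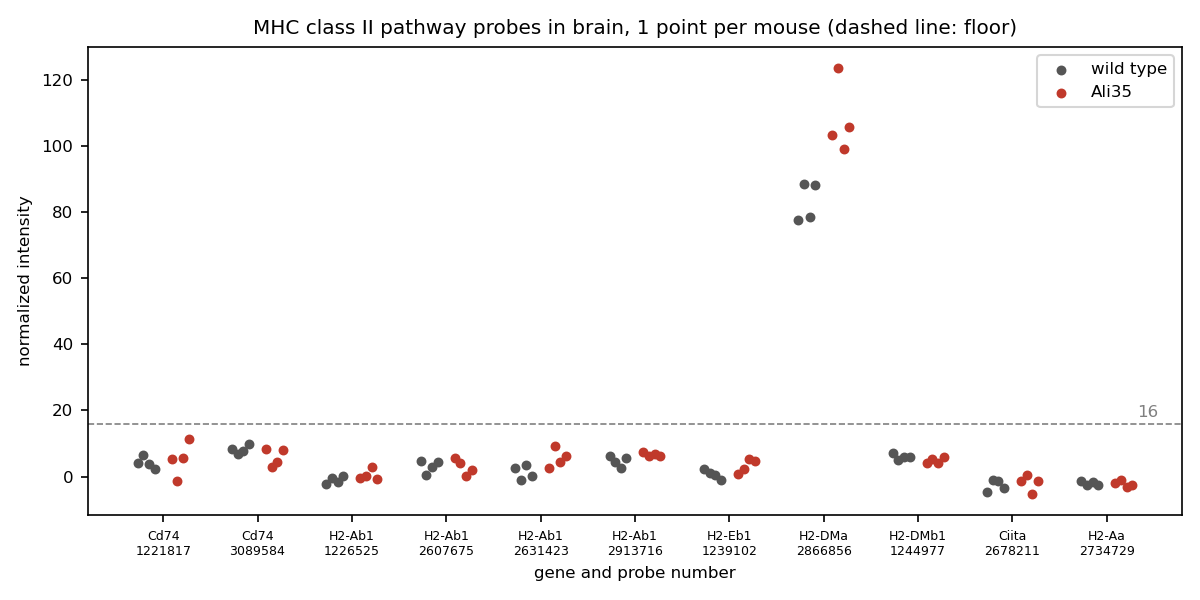
Normalized intensity (vertical axis, no unit) of all 11 class II pathway probes in brain at 3 days, 1 point per mouse, with the floor of 16 as a dashed line. Only the H2-DMa probe lies above the floor, at 77.6 to 88.4 in wild type and 99.2 to 123 in Ali35.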

How the data were processed

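Total RNA of 16 mice had been labelled with biotin and hybridized to Illumina bead arrays, and GenomeStudio 2011.1 is named in the submitters' processing notes. The authors deposited linear intensity values per probe. The values themselves show background subtraction, since values below 0 occur, and normalization within each tissue, since arrays of a tissue have nearly equal medians (12.5 to 12.6 in bone, 8.44 to 8.47 in brain); how this was done was not stated in the sources used here. A non-normalized table with 32 columns under running numbers was not used, because its columns match no label.

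Probes were named by GEO's platform annotation, and all 11 member probes matched a RefSeq gene. Each tissue was fitted alone with limma 3.58.1 (lmFit, eBayes) in R 4.3.3 on log2 of the floored values. The fits were tested on simulated data, with fewer changed probes than were called here. In bone 27% of log2 changes of 0.5 and 77% of changes of 1 were recovered, and in brain 41% and 84%. Of the calls 3.7% were false in bone and 5.3% in brain. With fewer changed probes the adjustment is stricter, so recovery in the data can be higher than in the simulation. Changes of modest size can still fail to pass, but their share in the data was not measured. The number of mice limits the precision, and nothing says whether littermates were used. A gene in a list is represented by its brightest tested probe. Named were all members, the 6 genes of most similar pattern and some genes of low p per list, not always those of lowest p. Other genes were chosen after their values were seen. The members and lists were chosen with earlier results of these data known. The labels do not say whether same-numbered replicates share more than a number. Their deviations correlated at -0.12 to 0.16 in bone and 0.01 to 0.14 in brain, and whether they shared a batch was not tested. Figures were drawn with matplotlib 3.10.9 in Python 3.11.15.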

Additional observations from a re-analysis of the deposited data

Results flagged for a closer look

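Among 20 groups of 4 mice examined for the tested class II probes, 1 had a mouse far from the other 3 by Dixon's ratio, about as many as chance gives at 1 in 20. Wild-type bone replicate 3 read 2876 on the second Cd74 probe, where the other wild-type mice read 1755 to 1871. Without that mouse the log2 change of this probe was 1.27, against 1.11 with it.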

How the results depend on the processing

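In bone 6 of 9 class II probes were called. The number stayed at 6 under both scalings within the tissue, floors of 8 and 32, log2(value + 16), the stricter filter, limma's trended, robust variance and the fit of all 16 arrays. It was 3 with no filter on dim probes and 3 at a threshold of 0.01, the Cd74 probes and H2-Ab1 probe ILMN_2913716 in both cases, and 4 to 6 when single arrays were left out. With the replicate number as a block 5 class II probes and 2335 of all probes were called, H2-Eb1 being lost (adjusted p = 0.0535). Over all probes, bone had 3006 calls, 1430 with no filter, 1034 at the threshold of 0.01, and 1634 to 2636 without single arrays. In brain 398 were called, 165 with a floor of 8, 19 with no filter, 850 with the trended, robust variance, 206 with the replicate block, 947 in the fit of all 16 arrays, 8 at the threshold of 0.01, and 43 to 245 without single arrays. H2-DMa in brain was the 1 class II probe called with a floor of 32 (adjusted p = 0.0439) and in the fit of all 16 arrays (adjusted p = 0.0492). With no filter, 6 class II probes were called for the difference between tissues, those called in bone, with the brain values at the floor. The causes were not tested. No class II probe tested changed sign past its threshold under these alternatives. The median change of all probes moved by less than 0.1 under every scaling. As deposited, the arrays of a tissue already had nearly equal medians, so scaling within the tissue could change little. The count of 6 under both scalings is therefore no check of the deposited normalization.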
